A study of Mus musculus with 80 samples.

Results

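The comparison set fibroblasts from Pgr-Cre Kdm6b f/f females (called cKO here) against fibroblasts from Kdm6b f/f females without the Cre (control), both taken from inter-implantation-site tissue (IIS, the uterus between embryos) at GD14.5 (GD, gestation day) after mating to B6 males. The members were the 3 H3K27me3 CUT&RUN samples of each group, 6 of the 80 samples of the series, and the 2 deposited lists of broad peaks made from them, out of 16 lists. All mice of the comparison carry floxed Kdm6b alleles, and the Cre is driven by the progesterone receptor gene Pgr, so recombination is limited to cells that express or have expressed that receptor. Myometrium and endometrium were digested with enzymes, and the fibroblasts were then isolated on magnetic beads. The series also holds cKO and control pairs from IIS at GD5.5 and GD8.5, from implantation sites (IS) at GD14.5 and GD18.5, and a Pdgfra-Cre pair from GD14.5 IS, each with 3 samples and 1 list per side. They are used below only to set values side by side. The labels do not say whether IIS and IS samples of a day came from the same females.

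H3K27me3 is the trimethylation of lysine 27 of histone H3, written by the Polycomb complex PRC2 and found over silent developmental and tissue-restricted genes. Kdm6b (also called JMJD3) encodes an enzyme that removes it. In the uterus, Polycomb marking in stromal fibroblasts is known for silencing chemokine and muscle-type genes in the decidua, and in female cells the inactive X chromosome is covered by the mark over long stretches.

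Because each list pools its 3 samples, a value has no replicate error, no test of cKO against control was possible, and the number of reads behind a list is unknown. The lists are permissive: the median peak had a -log10 p of 0.659 in the cKO list and 0.615 in the control list. The measure was coverage: how many percent of a gene, extended by 2 kb at both ends, or of a 10-kb bin of the genome, lay inside peaks. A difference is the cKO value minus the control value, in points of percent. A gene or bin was called gained or lost at a difference of 50 points or more. Where a gene or region is given with 2 values, the first is the cKO and the second the control unless a sentence says otherwise. All positions are in mm10, counted from 1. Intervals are exact 95% binomial intervals and cover the counting of genes only. Fibroblast genes carried little of the mark: 13 of 20 fibroblast identity genes had the same coverage in both lists, each at 0, and the list's mean was 5.07% in the cKO and 3.68% in the control. Coverage of marker genes of other cell types differed by type, with means of 78.4% in the cKO and 80.6% in the control for epithelial markers 61.5% and 59.8% for immune markers, 47.2% and 45.4% for endothelial markers and 26.9% and 27.5% for pericyte markers. A mark is not a measure of RNA, and the share of other cells in either preparation was not tested. Among the genes of the design, Kdm6b itself was covered at 5.19% in the cKO and 1.07% in the control, Pgr at 0 in both, and Pdgfra at 27.9% and 13.9%, a difference of 22.9 points at equal length.

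Promoters are printed first because CG pairs were counted in the bases before the starts of gained and lost genes. These are the 250 bases before the RefSeq transcription start in mm10, 5′ to 3′ on the gene's strand, with each CG pair (the letters CG, searched on the printed strand, which reads the same on both strands) in capitals. Tgfbi (secreted matrix protein induced by TGF-beta, chr13:56609336-56609585, plus strand) and Kcng4 (modifier subunit of voltage-gated potassium channels, chr8:119635681-119635930, minus strand) are gained genes. Clec4a1 (C-type lectin receptor of myeloid cells, chr6:122921598-122921847, plus strand) and Cd48 (surface ligand on leukocytes, chr1:171681742-171681991, plus strand) are lost genes. Cd48 was chosen after its values were seen.
Tgfbi: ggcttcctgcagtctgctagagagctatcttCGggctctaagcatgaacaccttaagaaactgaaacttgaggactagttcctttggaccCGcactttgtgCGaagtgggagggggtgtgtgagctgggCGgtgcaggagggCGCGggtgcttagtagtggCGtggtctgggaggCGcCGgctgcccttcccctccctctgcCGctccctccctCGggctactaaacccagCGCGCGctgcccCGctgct
Kcng4: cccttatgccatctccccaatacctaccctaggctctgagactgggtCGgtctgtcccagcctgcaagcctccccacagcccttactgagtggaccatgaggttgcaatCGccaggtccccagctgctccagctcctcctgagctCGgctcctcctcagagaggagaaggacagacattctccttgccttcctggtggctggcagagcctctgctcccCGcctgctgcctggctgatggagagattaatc
Clec4a1: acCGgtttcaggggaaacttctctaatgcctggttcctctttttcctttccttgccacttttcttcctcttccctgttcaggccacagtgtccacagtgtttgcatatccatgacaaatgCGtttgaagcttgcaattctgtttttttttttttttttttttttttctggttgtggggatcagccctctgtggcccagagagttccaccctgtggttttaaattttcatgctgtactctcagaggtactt
Cd48: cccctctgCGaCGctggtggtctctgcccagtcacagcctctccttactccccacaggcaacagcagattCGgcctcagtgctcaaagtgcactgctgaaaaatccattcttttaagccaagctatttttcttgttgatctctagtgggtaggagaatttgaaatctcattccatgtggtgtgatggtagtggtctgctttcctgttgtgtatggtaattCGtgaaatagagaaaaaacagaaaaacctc
The Tgfbi stretch holds 15 CG pairs, Kcng4 4, Clec4a1 2 and Cd48 4. All of the printed bases of Tgfbi and Kcng4 lay inside a peak in the cKO list and none in the control list. For Cd48 all of them lay inside a peak in the control and none in the cKO, and for Clec4a1 36% in the control and none in the cKO. Other promoters did not follow their gene: that of the lost gene Olfr722 lay inside a peak over 75.2% of its bases in the cKO and none in the control, and that of the gained gene Bbox1 wholly in both. A CG pair was present in 91.8% of all 26794 promoters of the table, whose median was 6 pairs. Over the 17274 protein-coding genes, the like set for these genes, the share was 92.8% and the median 10 pairs. The median was 4 pairs over the gained genes with a promoter in the table and 1 over the lost ones, of which 69.2% held any. Without the olfactory (Olfr) and vomeronasal (Vmn) receptor genes, the 101 lost genes left had a median of 2 pairs, and 79.2% held any.

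At GD14.5 between sites, less of the genome lay inside H3K27me3 peaks in the cKO than in the control, and the X chromosome lost more length than any other chromosome. The cKO list covered 684 Mb and the control list 730 Mb, a log2 ratio of -0.09. On the X, 63.3 Mb was covered in the cKO and 86.1 Mb in the control, a log2 ratio of -0.44, which is 22.8 Mb less. All 19 autosomes together accounted for almost the same length, 621 Mb against 644 Mb, a log2 ratio of -0.05. Coverage was lower in the cKO on 17 of 19 autosomes, and higher on chromosome 13 (31.5 against 31.3 Mb) and chromosome 18 (23.6 against 22.9 Mb). The other 5 cKO lists covered more autosomal length than their controls, with log2 ratios from 0.07 at GD18.5 IS to 0.34 in the Pdgfra-Cre pair, while their X values ran from -0.16 at GD5.5 IIS to -0.78 at GD14.5 IS. When each list was cut back to its best-scoring peaks at an equal length of 487 Mb, the X kept its lower value (log2 -0.46) and the autosomes turned to 0.04.

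**Figure D1:**
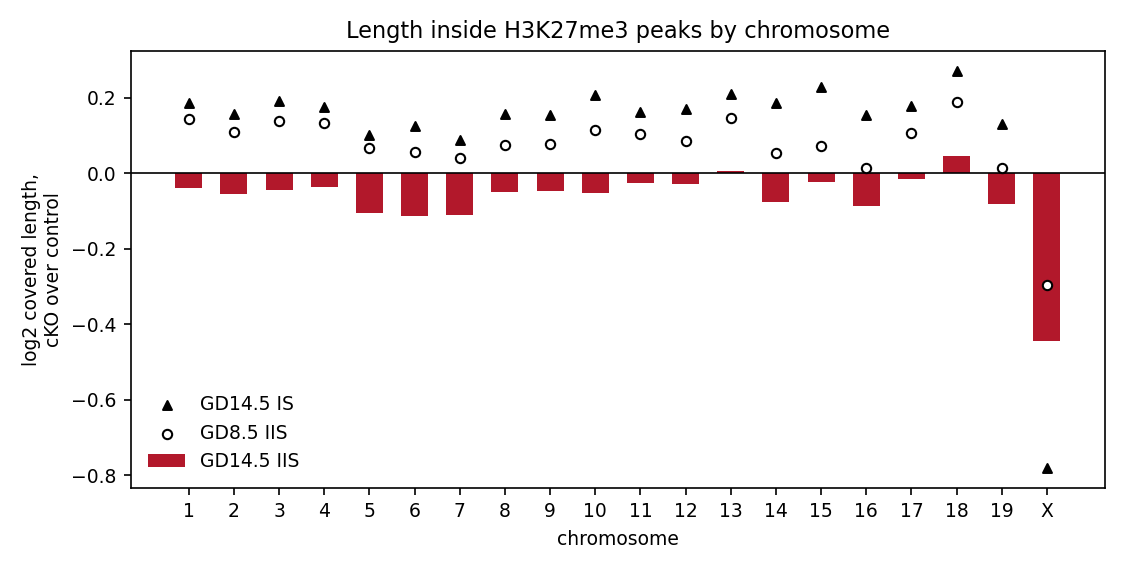
Length inside H3K27me3 peaks on each chromosome (x axis), as the log2 ratio of cKO over control (y axis). Bars show GD14.5 IIS, triangles GD14.5 IS and circles GD8.5 IIS, 1 list per side. The X stands at -0.44 at GD14.5 IIS, and the bars of 17 autosomes lie below 0 while the triangles and circles of all 19 lie above it.

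Peaks on the X were shorter as well as fewer in the cKO. The list held 32979 X peaks with a median width of 1101 bp against 35348 peaks of 1423 bp in the control, while median autosomal widths were 1076 and 1136 bp. Of 17088 bins on the X, 742 were lost (4.34%) and 1 was gained (0.00585%). X genes followed: 19 of 966 were lost (1.97%), none was gained, and 161 (16.7%) lost at least 25 points. Coverage of Timp1, an X-linked inhibitor of matrix proteases, was 43.4% in the cKO and 63.4% in the control, a difference of -20.04 points and of -7.13 at equal length. Of the peaks of the whole cKO list, 71.3% overlapped a control peak by at least 1 bp, and 65.2% of control peaks overlapped a cKO peak.

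Over genes, losses outnumbered gains. Of 21631 protein-coding genes, 23 were gained, a background share of 0.106% (interval 0.0674 to 0.160), and 236 were lost, 1.09% (0.957 to 1.24). At 25 points the counts were 303 (1.4%) and 1029 (4.76%). Mean coverage over all genes was 22.8% in the cKO and 25.1% in the control, and the median difference was 0. A measure of how far 2 lists of like tissue lie apart comes from the 2 control lists of GD14.5 IS, those of the Pgr-Cre and of the Pdgfra-Cre set: 65 genes (0.3%) were higher by 50 points in the first and 9 (0.0416%) in the second, and at equal length 81 (0.374%) and 79 (0.365%). The 23 gains are thus fewer than the 65 genes that separate those control lists. The 236 losses are more than either count, also at equal length, where 90 genes were gained (0.416%) and 269 lost (1.24%). Without flanks the shares gained and lost were 0.439% and 1.91%, and with flanks of 5 kb 0.0693% and 0.606%. The members nearest the threshold were Ypel4 at 50.3 points (inside) and Iyd at 49.8 (outside) among gains, and Vmn2r81 at -50.01 (inside) and Cyp4a12b at -49.9 (outside) among losses.

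Of the genes of at least 10 kb with flanks, 8 kept a gain of 50 points at equal length. The 3 with provisional symbols are Gm5544, 4930447A16Rik and 1700016H13Rik, and the other 5 are described here. Tgfbi went from 8.82% in the control to 75.02% in the cKO, and from 1.58% to 52.5% at equal length. Kcng4 stood at 86.1% and 25.9%. Bbox1, whose enzyme makes carnitine, stood at 70.3% and 10.6%. Mrln, which encodes myoregulin, a small inhibitor of the calcium pump SERCA, had 65.5% and 15.0%. Ccnb1ip1, a regulator of meiotic crossing over, had 89.6% and 38.6%. Bbox1 and Mrln were also higher in every other cKO list than in any other control list: 61.5% to 79.7% against 0.889% to 47.8% for Bbox1, and 65.1% to 75.9% against 14.1% to 30.3% for Mrln. Tgfbi differed among days. Its control value was 89.2% at GD5.5 IIS, 26.5% at GD8.5 IIS and 8.82% at GD14.5 IIS, and its cKO value was 76.1%, 73.0% and 75.02%. Ccnb1ip1 was less steady, with other differences from -70.4 to 12.2 points.

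The other gained genes were mostly short. Hcar1, the lactate receptor, was at 78.6% and 0. Mt1, a metal-binding metallothionein, was at 80.8% and 7.33%, and Cd93, a lectin-like receptor of endothelial and myeloid cells, at 66.3% and 0. These gains were smaller at equal length: 0 points for Hcar1, 10.4 for Mt1 and 48.9 for Cd93. Xcl1, a lymphocyte chemokine, had 94.4% and 39.2% and a larger gain, 75.7 points, at equal length. Of the 23 gained genes, 15 kept 50 points at equal length and none changed direction. Their mean difference in the 5 other pairs was 26.99 to 36.2 points, against -1.60 to 1.82 points over all genes.

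**Figure D2:**
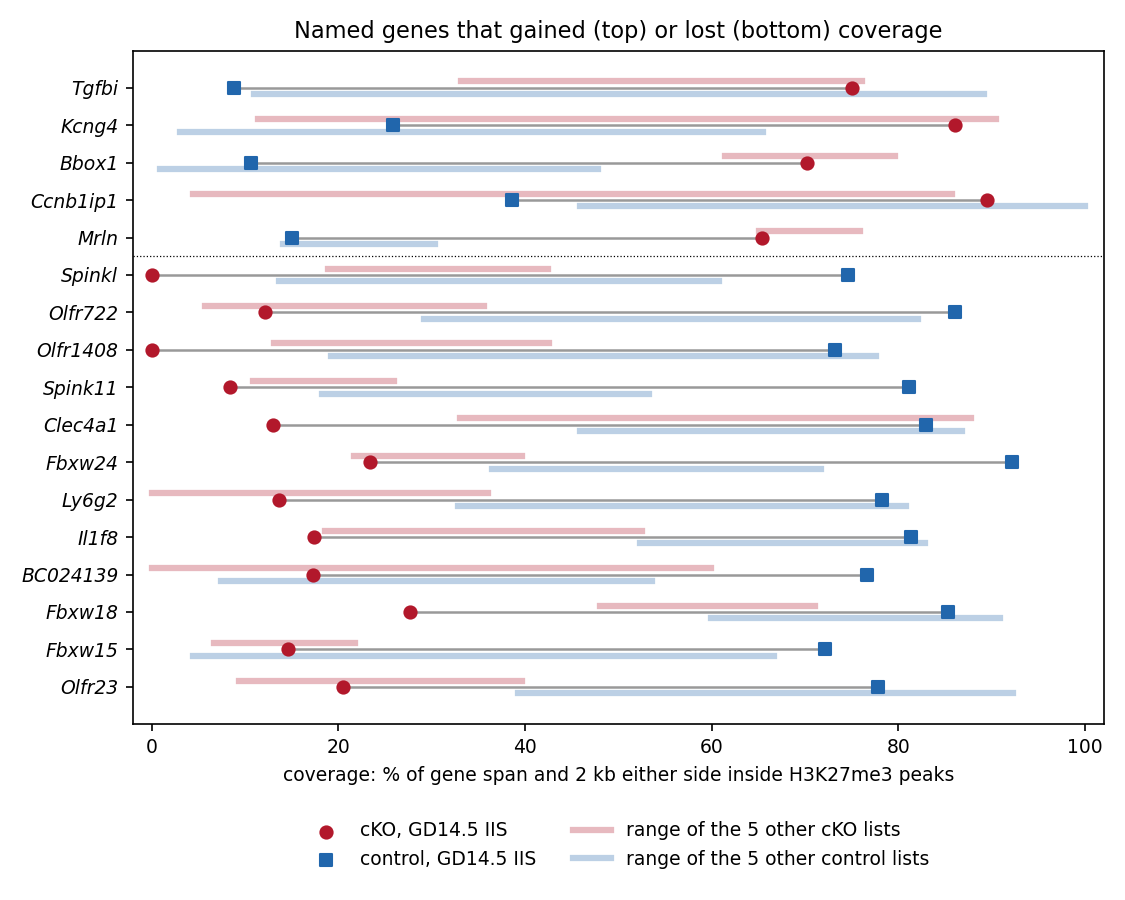
Coverage (x axis, percent of gene span and 2 kb either side inside peaks) of named genes of at least 10 kb that gained or lost 50 points and kept that at equal length, at GD14.5 IIS: 5 of 8 gained genes (Gm and Rik symbols are left out) and the 12 largest of 17 lost genes, at most 3 per family. Red circles are cKO, blue squares control, and pale bars the range of the 5 other cKO and 5 other control lists. Mrln and Bbox1 show cKO and control bars that do not overlap, whereas the bars of all 12 lost genes shown overlap.

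Many lost genes lay in tandem families of small genes. Their median span with flanks was 5044 bp, against 21329 bp over all genes, and 65 of the 236 were at 0 in the cKO. Olfactory receptor genes made up the largest share: 101 of 1104 Olfr genes were lost (9.15%), none was gained, and their mean coverage was 20.9% in the cKO and 34.6% in the control. Of 231 vomeronasal receptor genes of the Vmn1r type, 14 were lost (6.06%), and of 123 of the Vmn2r type 1 was (0.813%), below the share over all genes. Olfr722 had 12.2% coverage in the cKO and 86.1% in the control, and Olfr1408 0 and 73.2%. The control list carried the excess: Olfr means ranged from 18.9% to 22.6% over all 6 cKO lists and from 23.0% to 34.7% over the 6 control lists. These ranges do not overlap but lie close, and in the Pdgfra-Cre pair the means were 22.1% and 23.0%, a difference of -0.957 points. The mean difference of the Olfr genes was -13.7 points at GD14.5 IIS and -7.70 at equal length.

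A set of 14 Fbxw genes, F-box genes expressed in the oocyte and mostly in a cluster on chromosome 9, had 6 lost members. Its mean was 23.6% in the cKO and 57.3% in the control. The set included Fbxw17 on chromosome 13, at 0 in both lists. It lacked Fbxw23 (10.5% and 61.9%) and Fbxw25 (31.7% and 82.4%), which lie in the cluster and were lost too. Fbxw24 (chr9:109601116-109626059) stood at 23.4% and 92.2%, Fbxw18 at 27.7% and 85.4%, and Fbxw15 at 14.6% and 72.2%. Their neighbours Fbxw13 (56.0% and 50.2%) and Fbxw27 (59.4% and 65.3%) differed little, so the lower coverage was not uniform along the cluster. In the Reg cluster on chromosome 6, which encodes secreted antimicrobial lectins of gut and pancreas, Reg3g stood at 9.61% and 93.5%, Reg3d at 9.05% and 65.1%, and Reg3b at 8.77% and 62.8%. At equal length Reg3g kept its difference (-93.5 points) and that of Reg3b was -9.28. These were the 3 lost of 7 Reg genes. In the same cluster Reg3a was at 0 and 36.5% and Reg1 at 0 and 18.8%, both without a difference at equal length, and Reg2 was at 0 in both lists. Reg4, on chromosome 3, was higher in the cKO, at 54.1% and 28.4%. In the Ly6 cluster on chromosome 15, which encodes small lipid-anchored surface proteins, Ly6f stood at 5.09% and 92.4% and Ly6g2 at 13.6% and 78.3%, while Ly6h was at 100% in both lists and Ly6a and Ly6c1 at 0 in both. Spinkl (0 and 74.7%) and Spink11 (8.41% and 81.1%) are protease inhibitor genes that lie side by side on chromosome 18, and Spink1 in the same cluster was at 95.9% and 96.4%. Il1f8, an interleukin-1 family cytokine gene, stood at 17.4% in the cKO and 81.4% in the control, and Clec4a1 at 13.0% and 83.0%.

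At equal length, 82 of the 236 lost genes kept 50 points and 10 had the opposite sign. Their mean difference in the other pairs ran from -3.70 points in the Pdgfra-Cre pair to -33.9 at GD18.5 IS. The control list of the Pdgfra-Cre pair, the shortest of the 12 at 609 Mb, had a mean of 33.0% over these genes and its cKO list 29.3%.

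Most lost genes had promoters poor in CG pairs. The ratio of observed to expected CG pairs was under 0.5 in 97.0% of the 201 lost genes with a promoter in the table, in 66.7% of the 18 gained ones and in 44.3% of all 17274. Split at a ratio of 0.6, 8198 autosomal genes had CpG-rich starts and 8259 CpG-poor starts. Within 2 kb of CpG-rich starts mean coverage was 21.04% in the cKO and 19.7% in the control, with 57 windows gained and 9 lost. Within 2 kb of CpG-poor starts it was 36.3% and 39.5%, with 125 gained and 271 lost. Over all start windows 1.07% were gained and 1.95% lost. The split is a description of sequence, and gene families with shared promoters are not independent members of it.

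**Figure D3:**
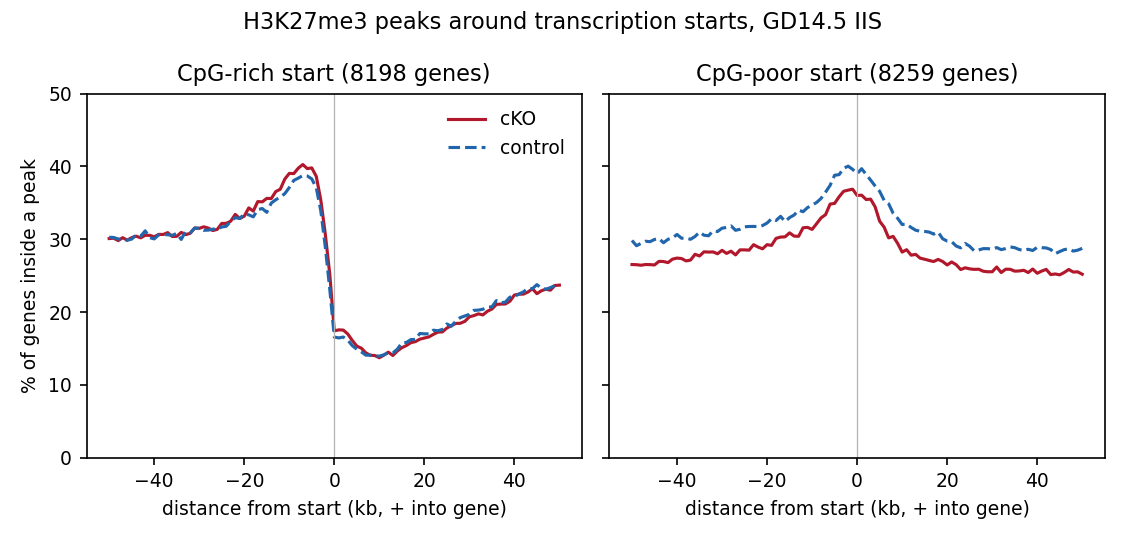
Percent of autosomal genes whose position at each distance from the transcription start (x axis, kb) lies inside a peak (y axis), for CpG-rich and CpG-poor starts at GD14.5 IIS. Red solid lines are cKO and blue dashed lines control. At CpG-poor starts the cKO line lies below the control line at all 101 positions, and at CpG-rich starts it lies above just before the start (39.0% against 37.1% at 10 kb before).

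Decidual genes had a mean coverage of 36.6% in the cKO and 29.7% in the control: 19 of 32 were higher, 2 lower and none reached 50 points. Of all 21631 genes, 5149 were higher, 7182 lower and 9300 the same, with a mean difference of -2.24 points. Igfbp3, a binding protein for insulin-like growth factors, was covered at 100% in the cKO and 72.7% in the control, and Inhbb, an activin subunit, at 20.9% and 0, with no difference at equal length. Fst, the activin antagonist follistatin, was at 76.6% and 43.6%, but at 8.41% and 10.0% at equal length. Hand2, the stromal transcription factor induced by progesterone, was at 51.1% and 28.8%. Its difference was 22.3 points, 51.1 at equal length and 0.481 without flanks, so the difference as deposited lay in the flanks.

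Genes of contraction and parturition had means of 35.3% in the cKO and 29.5% in the control. Of these 39 genes 23 were higher and 9 lower, against 5149 higher and 7182 lower of all 21631 genes. Slco2a1, which carries prostaglandins into cells for breakdown, stood at 70.0% and 29.5%. The calcium-activated potassium channel genes Kcnn3 and Kcnma1, whose channels damp uterine excitability, stood at 36.2% and 1.48%, and at 40.5% and 15.9%. At equal length their differences were smaller, 11.4 and 15.5 points. Oxtr, the oxytocin receptor gene, had 29.01% and 9.17%, and Gja1, which encodes the gap junction protein connexin 43, 25.4% and 7.02%. Akr1c18, whose enzyme inactivates progesterone, was lower, with 35.6% in the cKO and 56.1% in the control, but its difference at equal length was 3.20 points. Smooth muscle genes had a lower mean in the cKO, 17.4% against 20.6%: the actin gene Acta2 was at 15.2% and 40.1%, and Lmod1, which nucleates actin, at 23.1% and 47.9%, while Mylk, the kinase of the myosin light chain, was at 26.9% and 10.0%. The difference of Acta2 was -24.9 points as deposited, -7.06 at equal length and -56.0 within 2 kb of its start. Of the 18 smooth muscle genes, 3 were higher, 7 lower and 8 the same. The list's mean difference was -3.22 points, against -2.24 over all genes. Within 2 kb of the starts its mean was higher in the cKO, 39.7% against 35.2%.

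Chemokine and inflammation genes had means of 59.7% and 52.9%. Cxcl10, which attracts T cells, was at 45.7% in the cKO and 0 in the control, Ccl7, which attracts monocytes, at 39.7% and 0, and the acute-phase gene Saa3 at 58.0% and 9.85%. At equal length the difference was 15.2 points for Cxcl10 and 22.1 for Ccl7, and without flanks that of Ccl7 was 10.8. Lcn2, an iron-trapping defence protein, was at 57.0% and 99.5%, a difference of -42.5 points and of -71.04 at equal length. In the steroid list, means were 32.5% and 32.7%, and Hsd11b1, which activates glucocorticoids, was at 52.1% and 14.9%. Matrix genes had means of 24.1% and 22.4%, with the gelatinase gene Mmp2 at 58.5% and 9.01% (9.74% and 0 at equal length) and the collagen gene Col8a1 at 60.4% and 21.4%. Developmental transcription factors were marked nearly throughout, with means of 85.5% and 82.6%. Osr1 and Sox9 were covered at 100% in the cKO and at 54.97% and 69.1% in the control, and the difference of Osr1 was 94.3 points at equal length. Hox genes had means of 49.9% and 49.4%.

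Natural killer receptor genes had the lowest mean difference of the 22 lists as deposited, -12.5 points, with 18.1% coverage in the cKO and 30.7% in the control. Of 30, 3 were lost and 17 were lower, where 1.09% of all genes were lost and 7182 of 21631 were lower. Klrk1 (the activating receptor NKG2D) stood at 23.2% and 79.4%, Klrd1 (CD94) at 27.3% and 82.3%, and Klrb1 at 17.4% and 74.8%. At equal length none of these 3 reached 50 points (-23.7, -33.6 and -23.7). The list's mean difference was then -4.07 points, and that of pericyte markers was lower, -5.02. The lists hold 8 to 127 genes, and neighbours on a chromosome share peaks.

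**Figure D4:**
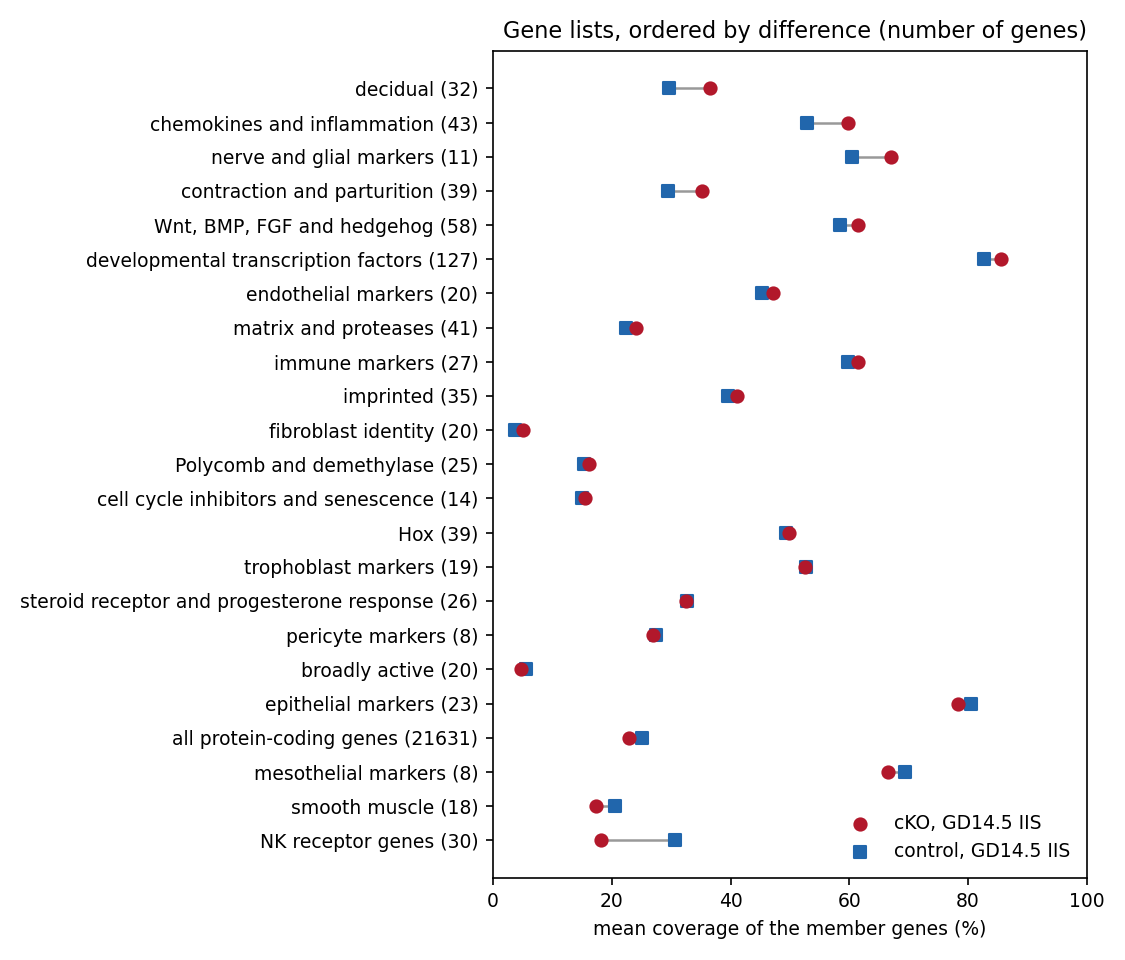
Mean coverage (x axis, percent) of the genes of each list and of all protein-coding genes at GD14.5 IIS. Red circles are cKO and blue squares control, with the number of genes in parentheses and lists ordered by their difference. Decidual genes lie at the top (36.6% against 29.7%) and natural killer receptor genes at the bottom (18.1% against 30.7%).

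Across the genome, gained and lost bins were about equally frequent. Of 263130 bins, 3347 were gained (1.27%) and 3519 lost (1.34%). On autosomes 3346 were gained (1.36%) and 2777 lost (1.13%). The 2 control lists of GD14.5 IS differed at 988 bins (0.375%) one way and 49 (0.0186%) the other, and at equal length at 1553 (0.59%) and 2325 (0.884%). Gained autosomal bins lay wholly outside protein-coding genes in 75.6% of cases, lost ones in 63.5% and all autosomal bins in 54.3%. Gains were also longer: 189 runs of gained bins and 96 runs of lost bins reached 3 bins or more, and with 50-kb bins 159 were gained (0.302%) and 63 lost (0.12%). At 25 points 5.43% of 10-kb bins were gained and 8.31% lost, at equal length 2.2% and 1.96% by 50 points, and with strong peaks (a -log10 q of at least 2) 0.126% and 0.0395%.

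The longest gained run covered 110 kb (chr18:55180001-55290000), held no protein-coding gene and lay 187 kb from Zfp608. Its coverage was 72.1% in the cKO and 5.38% in the control. The other 5 cKO lists stood at 53.1% to 74.4% there and the other 5 control lists at 3.17% to 13.8%, so the 2 genotypes did not overlap. A run of 80 kb (chr2:75410001-75490000) overlapped the predicted gene Gm50595 and stood at 77.6% and 9.40%. A run of 60 kb (chr1:83850001-83910000), 126 kb from Pid1, stood at 72.2% and 0. A run of 60 kb (chr13:51900001-51960000), 51.5 kb from Gadd45g, which encodes a stress-induced protein, stood at 86.4% and 9.62%. In the last of these the control value was 81.9% at GD5.5 IIS and 44.6% at GD8.5 IIS, and the cKO value 92.1% and 76.3%. The longest lost run was 70 kb (chr13:72410001-72480000), 144 kb from the homeobox gene Irx2, at 9.86% in the cKO and 70.8% in the control. At equal length its difference was -3.32 points. A lost run of 50 kb (chr15:75230001-75280000) overlapped Ly6f, at 17.1% and 84.5%.

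**Figure D5:**
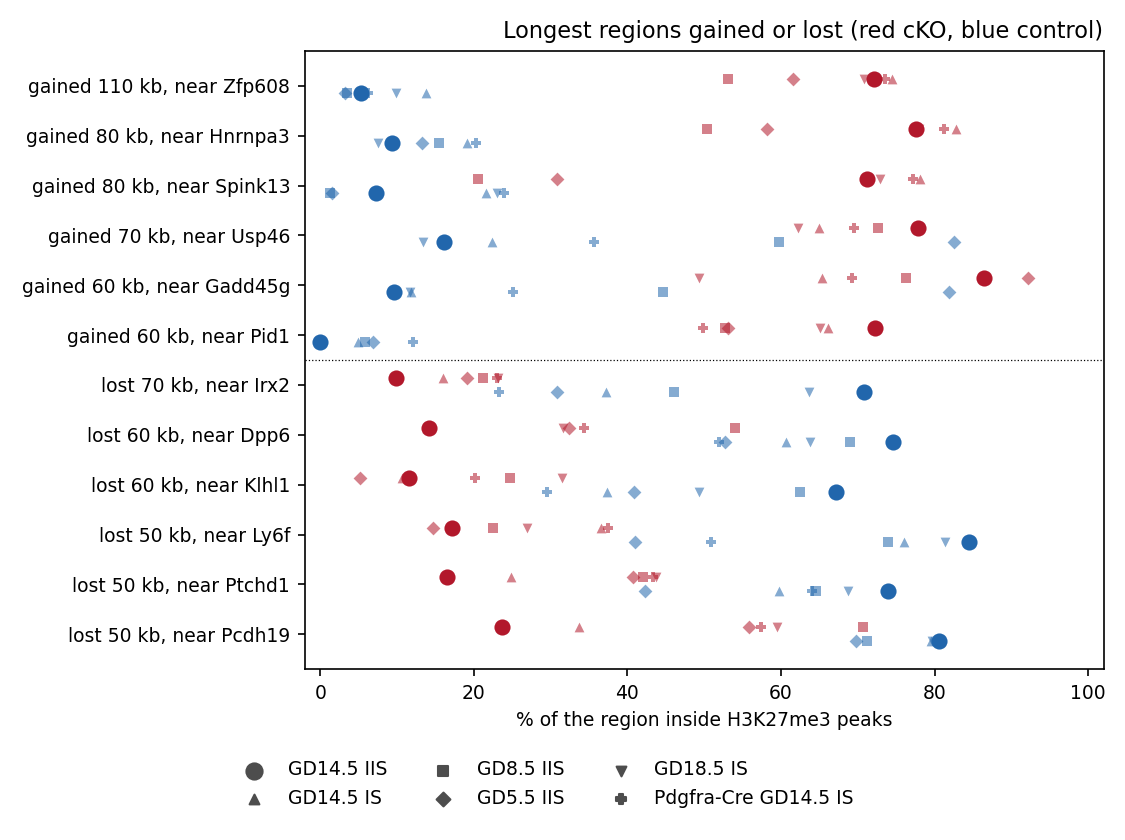
Percent of the 6 longest gained and 6 longest lost runs of 10-kb bins that lay inside peaks (x axis), in the 6 cKO lists (red) and 6 control lists (blue). Large circles are GD14.5 IIS and small symbols the other pairs, and each run is named by its length and nearest gene. The run near Zfp608 shows all cKO lists at 53.1% or more and all controls at 13.8% or less.

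Set beside the other pairs, gained bins of GD14.5 IIS were high in cKO lists and low in control lists generally. Their mean difference was 62.9 points in the pair that chose them. It was 47.9 at GD14.5 IS, 41.1 at GD8.5 IIS, 35.9 at GD5.5 IIS, 45.1 at GD18.5 IS and 49.1 in the Pdgfra-Cre pair, where the means over all bins were 0.718 to 4.67. At GD14.5 IS, where 1.86% of bins were gained, 1635 of the 3347 were gained too, 48.8% of this set and 33.5% of that one. At GD8.5 IIS, where 1.46% were gained, the number was 1243, 37.1% and 32.3%. Lost bins had smaller differences elsewhere: -59.2 points here, -30.7 at GD14.5 IS, -25.5 at GD8.5 IIS and -6.90 in the Pdgfra-Cre pair. At GD14.5 IS, where 1.42% of bins were lost, 700 of the 3519 were lost too, 19.9% of this set and 18.8% of that one. On autosomes alone 329 of 2777 were, 11.8%, so more than 1 in 2 of the shared lost bins lay on the X. At GD8.5 IIS, where 0.618% were lost, the number was 457, 13.0% of this set and 28.1% of that one. At equal length, where 1.92% of bins were lost at GD8.5 IIS, 22.3% of the bins lost here were lost there.

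The gained bins fell into groups by the control at GD5.5. In 849 of them (25.4%) the GD5.5 IIS control had at least 50% coverage, and in 1451 (43.4%) under 20%. Over the 191225 bins whose control at GD14.5 was low enough to gain 50 points, these shares were 3.42% and 84.8%. The 2 sets are not alike, because a gained bin has at least 50% coverage in the cKO by choice. In the class under 20%, the larger set had GD14.5 IIS means of only 4.61% in the cKO and 4.50% in the control. In the 849 bins the mean of the controls was 70.6% at GD5.5, 44.1% at GD8.5 and 20.995% at GD14.5, and that of the cKO lists 85.5%, 78.2% and 84.0%. The GD5.5 control value and both GD14.5 values were fixed by the choice of bins. The 6537 bins of the same GD5.5 class among all that could gain 50 points include these 849. Their controls stood at 63.5%, 46.5% and 35.1%, and the cKO lists at 61.1%, 56.9% and 53.9%. The fall of these controls from GD5.5 to GD14.5 was also set by the choice, which asked for a high first and a low last value. In the 1451 gained bins the controls stood at 6.95%, 7.89% and 6.64%, and the cKO lists at 54.0%, 52.2% and 70.0%.

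The strongest peaks, those with a -log10 q of at least 2, covered more length in this cKO list than in its control. They numbered 454 over 7.32 Mb in the cKO and 366 over 5.14 Mb in the control, a log2 ratio of length of 0.51. In the other 5 pairs the cKO length was below that of the control, for example 0.385 against 14.6 Mb at GD14.5 IS. The peaks were not new places: of the 454, 283 were strong in the control too, 171 met a weaker control peak with a median -log10 q of 1.62, and none was absent. By strong peaks alone 83 genes were gained (0.384%) and 17 lost (0.0786%). Tbr1, a transcription factor of cortical neurons, Shh, the hedgehog ligand, and Wnt10b, a Wnt ligand, were covered at 100% in both lists. The peak over Tbr1 had a -log10 q of 2.74 in the cKO and 1.91 in the control, and that over Shh 2.12 and 1.62. On the lost side, the peak over the skeletal actin gene Acta1 had 1.63 and 2.04. At a -log10 q of at least 5 the order turned, with 0.210 Mb in the cKO and 0.237 Mb in the control (log2 -0.17).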

How the data were processed

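Broad peak lists from H3K27me3 CUT&RUN were used as the authors deposited them: position, fold over background, -log10 p and -log10 q of each peak. The submitters' processing notes name mm10 as the build, macs2 2.2.7.1 as the peak caller, and STAR 2.7.5c, Picard, samtools 1.10 and bedtools 2.29.1 as further tools. Each list pools 3 samples. Of 16 lists, the 12 of the Kdm6b set were used; the B6CBAF1/J lists were not. Peaks on chromosomes 1 to 19 and X were merged and coverage computed over 21631 protein-coding genes (RefSeq, GRCm38.p6) and full bins, in python 3.11.15 with scipy 1.17.1, pandas 2.3.3, numpy 2.4.6 and matplotlib 3.10.9. The code was tested on simulated intervals. Promoter sequences are RefSeq's (mm10), and 17274 genes had a start there, the most upstream being used. Of the list members, 7 were not found.

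The members, gene lists and rules were chosen with earlier results of these data known. Named genes were the largest changes of at least 50 points kept at equal length (spans of at least 10 kb with flanks, no Gm or Rik symbols, at most 12 each way and 3 per symbol stem), the 8 largest each way by strong peaks, the 4 largest differences per list, Kdm6b, Pgr and Pdgfra, and genes in the 6 longest runs each way (ties by mean difference). Oxtr, Gja1, Akr1c18, the family members and gained genes outside these rules were named after their values were seen. Equal length took peaks from the lowest p upward to 80% of the shortest list. Other alternatives were strong peaks, other flanks, start windows, 25 points, 50-kb bins, overlap of 50% of a peak and subtraction of the median.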

Additional observations from a re-analysis of the deposited data

Results flagged for a closer look

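Both measures below of covered length went opposite ways in GD14.5 IIS and GD14.5 IS. The autosomal length was lower in the cKO than in the control between sites, with a log2 ratio of -0.0524, and higher at implantation sites, with 0.17. The length in strong peaks was higher in the cKO between sites, with a log2 ratio of 0.51, and lower at implantation sites, with -5.25. With 1 list per side, the difference between the sites was not tested in either case. The lists differ in covered length (684 and 730 Mb between sites, 740 and 702 Mb at implantation sites), and the part of that in these values was not tested.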

How the results depend on the processing

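The lists have no replicate values and an unknown depth, so peak strength and covered length limit the counts. No paired analysis was possible because each list pools its samples and sample numbers are not shared between groups; for the same reason no replicate could be left out. Genes gained (23) became 90 at equal covered length, 83 with strong peaks, 95 without flanks, 15 with 5 kb flanks, 185 in start windows and 303 at 25 points. Genes lost (236) became 17 with strong peaks, 413 without flanks, 131 with 5 kb flanks and 1029 at 25 points, and 269 at equal length. Bins gained (3347) became 5781 at equal length, 331 with strong peaks, 159 as 50-kb bins and 14289 at 25 points. Bins lost (3519) became 104 with strong peaks, 63 as 50-kb bins and 21867 at 25 points. Shared peaks were 56.3% of cKO and 47.6% of control peaks with overlap of 50% of the peak. The log2 ratio of covered length turned to 0.51 with strong peaks, over all chromosomes and over autosomes, and the autosomal ratio to 0.0437 at equal length. The strong-peak ratio turned to -0.17 at a -log10 q of 5. Among lost bins, 22.3% were also lost at GD8.5 IIS at equal length, against 13.0% as deposited. At equal length mean list differences turned to 1.56 points for steroid response, -0.594 for matrix, -1.29 for immune, 6.87e-05 for mesothelial, -0.0741 for cell cycle and 0.639 for broadly active genes. Single genes that turned at equal length were Fst (-1.61), Hoxa4 (1.30, and 39.7 without flanks), Ltf (9.24) and Magel2 (-16.0). The causes were not tested. The X stayed lower in the cKO (log2 -0.46 at equal length).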

Other observations

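The T cell co-receptor genes Ctla4, Icos and Cd28, which control T cell activation and lie together on chromosome 1, were covered more in the cKO: 71.6% against 28.8% for Ctla4, 54.9% against 25.3% for Icos and 25.5% against 0 for Cd28. They were the 3 immune markers of 27 that differed by 25 points or more, where 1.4% of all genes gained that much. Of the 27, 10 were higher and 11 lower, and the list's mean difference of 1.71 points was -1.29 at equal length. There the differences were 71.6 points for Ctla4, 25.2 for Icos and 9.39 for Cd28, and 3 members lost at least 25 points: Gzmb (a killer-cell protease, -60.02), Cx3cr1 (a chemokine receptor, -46.8) and Lyz2 (a myeloid lysozyme, -36.4). Ctla4 was higher in the cKO in each of the 5 other pairs too, for example 81.7% against 50.5% at GD14.5 IS. Among nerve and glial markers Ngfr, the low-affinity neurotrophin receptor gene, stood at 42.1% in the cKO and 0 in the control, and differed by 27.5 points at equal length. Among imprinted genes, Slc22a3 and Slc22a2, cation transporter genes of the Igf2r cluster, stood at 54.8% and 29.2%, and at 49.1% and 28.6%, with differences of 17.7 and 0.909 points at equal length. Of 35 imprinted genes 13 were higher and 13 lower, and the largest difference downward was that of Zim1, -24.8 points.

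Coverage also varied with gene density. In the 24071 autosomal bins with no gene within 500 kb, mean coverage was 6.86% in the cKO and 10.1% in the control. Of these bins 101 (0.420%) were gained and 272 (1.13%) lost, against 1.36% and 1.13% of all autosomal bins. In the 54321 bins with 6 to 10 genes that near, mean coverage was 30.6% and 29.9%, with 973 gained (1.79%) and 438 lost (0.806%). In the 4936 densest bins, with 41 to 74 genes, it was 26.4% and 30.4%, with 3 gained (0.0608%) and 82 lost (1.66%). The difference of the bins with no gene near was -3.28 points as deposited and -0.435 at equal length, and that of the densest bins -3.99 and -2.32.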
